A study of Mus musculus with 18 samples.

Results

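Ribosome footprints of embryonic cortices lacking Mettl3 were compared directly with those of cortices lacking Fto. The comparison used 6 of the 18 libraries of the series, the Ribo-seq libraries M-cKO 1 to 3 and F-cKO 1 to 3, which were chosen by their labels. Of the 54838 gene rows in the Ribo-seq count table, the 14348 with a value in all 9 Ribo-seq libraries were used, and 14262 of these had enough fragments to be tested over the 6 libraries. M-cKO embryos carried homozygous floxed Mettl3 alleles together with Emx1-cre, F-cKO embryos carried homozygous floxed Fto alleles with the same Cre, and the Ctrl libraries are labelled wild type. All were cerebral cortex of C57BL/6 mice at embryonic day 15.5 by their labels, while the methods of the study give a mixed background for the floxed lines. Emx1-cre acts in progenitors of the dorsal telencephalon and their progeny, so interneurons that enter from the ventral telencephalon, vessels, meninges and microglia keep both genes. Both deletions remove some exons only, and a count over the whole gene still includes fragments of the exons that remain. The labels call the 3 libraries of a group biological repeats. The methods of the study state that 3 cortical samples "from 1 L" were lysed for Ribo-seq and do not say what that unit is, so whether a library held a single embryo or several, and whether libraries shared a litter, is not known here. In bulk tissue, fewer cells of a type and less RNA per cell cannot be told apart.

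The m6A mark is a methyl group placed on adenosines inside mRNA. Mettl3 is the catalytic subunit of the complex that writes it, Fto and Alkbh5 are demethylases that can remove it, and reader proteins such as those of the Ythdf group bind it and act on the decay or translation of the marked RNA. In Ribo-seq, RNase I digests the RNA that ribosomes do not shield, the ribosome fraction is recovered, and the short fragments left are sequenced, so that a count depends both on how much RNA a gene has and on how many ribosomes are on it. The libraries were cut from a gel at 20 to 38 nucleotides, and any other RNA of that size in the ribosome fraction is counted as well.

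F-cKO 2 stood apart from every other Ribo-seq library and is therefore left out in a second set of values, which is not printed for every gene. It held 10973699 counted fragments, M-cKO 2 held 13764136, and the other M-cKO and F-cKO libraries held 20564223 to 32954317. In F-cKO 2, 1939 genes lay over 2-fold above all 8 other libraries and 369 over 2-fold below them, whereas 5 and 0 genes lay above in F-cKO 1 and F-cKO 3. Its correlation with the other libraries over 14262 genes was 0.855 to 0.895, while each other library had a correlation of 0.964 or more with at least 1 library. M-cKO 2 was the next most separate, with 315 genes over 2-fold above all others, of which 39 were miRNA genes and 163 were protein-coding. The tissue label was checked on marker lists, where genes of the neuronal cytoskeleton and neuronal identity summed to 31865 to 43530 CPM in 8 libraries and 21065 in F-cKO 2, liver genes to at most 26.8 CPM, and none of 9 genes of exocrine pancreas had values.

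With all 6 libraries, edgeR's quasi-likelihood test with Benjamini-Hochberg adjustment called no gene, and the smallest adjusted p was 0.107, for Fto. At an unadjusted p below 0.05, 710 genes were higher in M-cKO (4.98% of those tested) and 444 were lower (3.11%). In 1314 genes (9.21%) all M-cKO libraries lay above all F-cKO libraries, and in 971 (6.81%) all lay below. DESeq2 called 178 genes higher (1.46% of those it gave an adjusted p) and 28 lower (0.23%) over the same libraries, and limma's voom with library weights called 4 higher and 0 lower. Without F-cKO 2, 5 of 14282 genes were called higher in M-cKO (0.035%) and 0 lower (0.0%), namely Fto, C2cd2l, the long noncoding RNA Gm15728, the snoRNA gene Gm24119 and the snRNA gene Gm25308. Over these 5 libraries 1042 genes (7.3%) were higher and 867 (6.07%) lower at an unadjusted p below 0.05, and the M-cKO libraries lay above both F-cKO libraries in 2442 genes (17.1%) and below both in 2296 (16.1%). DESeq2 then called 337 higher (2.73%) and 248 lower (2.01%), and voom 4 higher and 0 lower. When F-cKO 1 or F-cKO 3 was left out as well, 1 F-cKO library remained, which is assumed to vary like the M-cKO libraries, and 0 genes were called, while the log2 differences of the 5 genes lay between 2.12 and 5.05. When M-cKO 3 was left out in place of these, 38 genes were called higher.

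The targeted genes were read first. Fto (chromosome 8, 91313367 to 91668433, GRCm38.p6) had 279, 269 and 238 CPM (fragments scaled to a common library size by the TMM method) in M-cKO 1 to 3, 40.4, 25.6 and 43.1 in F-cKO 1 to 3, and 276, 234 and 188 in Ctrl. The M-cKO and Ctrl libraries overlapped and all F-cKO libraries lay far below them. The log2 difference, M-cKO over F-cKO, was 2.85 ± 0.23 (SE, adjusted p = 0.107) with 6 libraries and 2.65 ± 0.15 (adjusted p = 0.00803) with 5. Mettl3 had 28.3, 26.6 and 26.8 CPM in M-cKO, 38.8, 42.2 and 36.5 in F-cKO and 38.1, 38.3 and 41.5 in Ctrl. All M-cKO libraries lay below all others, but the difference of -0.53 ± 0.17 with 6 libraries (adjusted p = 0.586) and -0.47 ± 0.15 with 5 (adjusted p = 0.317) was not called. In the RNA-seq libraries Mettl3 was higher in M-cKO, with 44.2, 40.2 and 42.5 CPM against 32.0, 31.2 and 26.7 in F-cKO (log2 0.48, adjusted p = 0.00301), so the RNA of the libraries labelled M-cKO did not show the loss at the level of the whole gene. For Fto, RNA-seq gave 180, 160 and 175 CPM in M-cKO against 42.5, 99.2 and 31.8 in F-cKO, with the library F-cKO 2 of that assay the highest of its group (log2 1.56, adjusted p = 0.00512).

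**Figure D1:**
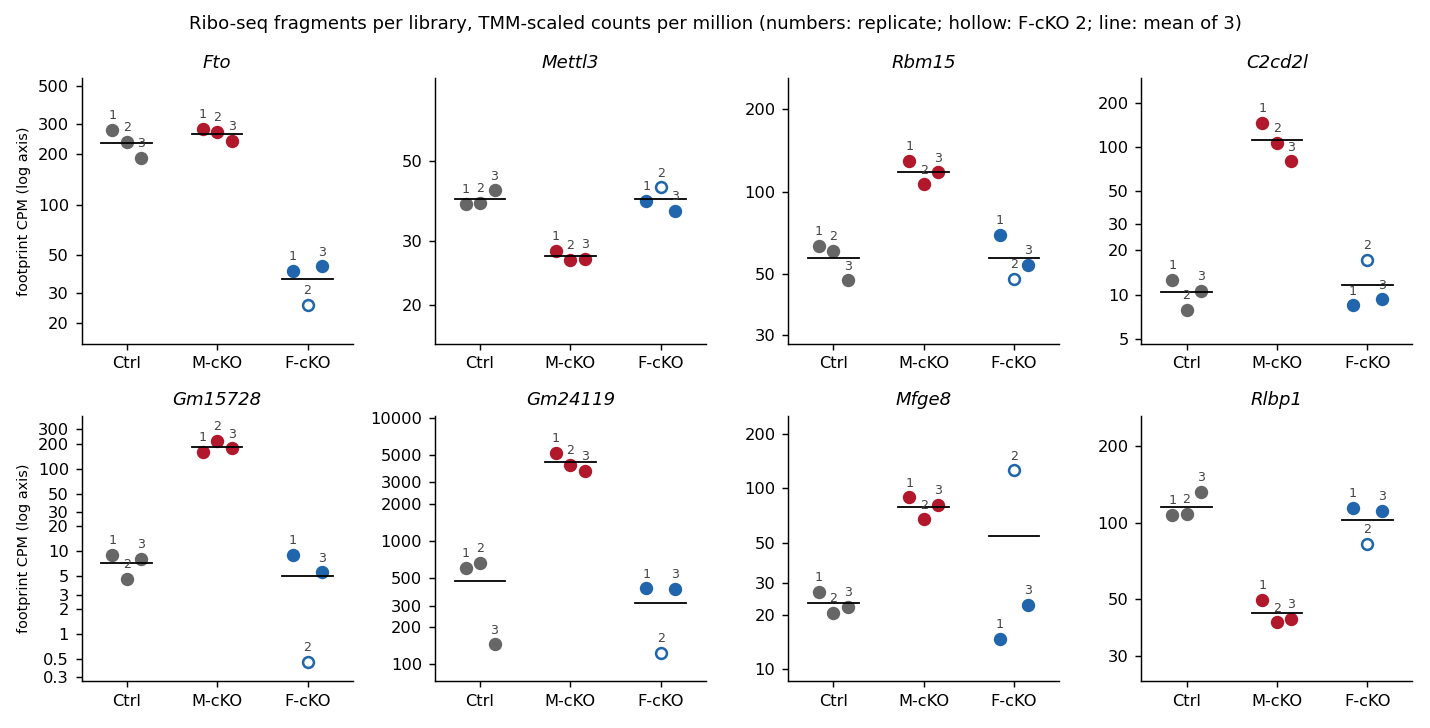
TMM-scaled CPM of 8 genes in the 9 Ribo-seq libraries on log axes, with each library a numbered point, F-cKO 2 hollow and the mean of 3 as a line. Fto is lowest in the F-cKO libraries, Mettl3 and Rlbp1 are lowest and Rbm15, C2cd2l, Gm15728 and Gm24119 highest in the M-cKO libraries, and Mfge8 separates the groups only when F-cKO 2 (125 CPM) is left out.

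Among the 9 writer genes measured, 4 had all M-cKO libraries above all F-cKO libraries (background 9.21%) and 1, Mettl3 itself, had all below (background 6.81%). Their median log2 difference was 0.32 with 6 libraries and 0.11 with 5, against -0.07 and 0.01 over all genes. Rbm15, which recruits the complex to RNA, had 129, 106 and 118 CPM in M-cKO, 69.7, 48.0 and 53.9 in F-cKO and 63.4, 60.6 and 47.5 in Ctrl. Every M-cKO library lay above the other 6, with a difference of 1.04 ± 0.19 (adjusted p = 0.364) and 0.93 ± 0.17 without F-cKO 2 (adjusted p = 0.207). Rbm15 overlaps Slc16a4 in the annotation, and the sources used here do not say if counting was by strand, so its level may include fragments of that neighbour. Its close relative Rbm15b had 84.9, 83.7 and 85.1 CPM in M-cKO against 65.9, 38.9 and 55.6 in F-cKO (0.66 and 0.48). Wtap, the scaffold of the complex, had 102, 96.1 and 129 CPM in M-cKO against 74.2, 46.2 and 70.2 in F-cKO (0.78 and 0.60). Both groups of Wtap values were apart, and the lowest F-cKO library was F-cKO 2 for all 3 genes. Mettl16, a separate m6A methyltransferase, had 69.8, 56.6 and 73.5 CPM in M-cKO against 56.2, 32.9 and 54.1 in F-cKO, values that are apart by less than 1 CPM. The other 4 writers, Mettl14, Virma, Zc3h13 and Cbll1, overlapped between the groups and had differences of -0.14 to 0.32 with 6 libraries. In RNA-seq, 6 of the 9 writers, the deleted Mettl3 among them, were called higher in M-cKO and 2 lower, against 13.1% and 14.3% of all genes. Rbm15 was at 0.90, Rbm15b at 0.61 and Wtap at 0.34.

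Of the 12 readers, 2 had all M-cKO libraries above all F-cKO libraries and 1 had all below (background 9.21% and 6.81%), and without F-cKO 2 the numbers were 2 and 3 (background 17.1% and 16.1%). The median was -0.11 with 6 libraries and 0.08 with 5. Ythdf1 had 98.8, 89.2 and 108 CPM in M-cKO against 72.8, 50.8 and 66.3 in F-cKO (0.64 ± 0.18 and 0.51 ± 0.14, adjusted p = 0.569 and 0.29). Ythdf2, which promotes decay of marked RNA, ranged from 222 to 340 CPM in M-cKO and from 157 to 224 in F-cKO, and M-cKO 2 lay below F-cKO 1 by a small margin (0.66 and 0.58). Ythdc1, the nuclear reader, had 193, 172 and 200 CPM in M-cKO against 167, 157 and 131, all higher, with a difference of 0.31 ± 0.15. Fmr1 went the other way, with a mean of 111 CPM in M-cKO and 151 in F-cKO and no overlap (-0.45 and -0.48, adjusted p = 0.586 and 0.316). RNA-seq called 2 of the 12 readers higher, Ythdf1 (0.70) and Ythdf2 (0.65), and 3 lower, with Fmr1 (-0.45) among them. The shares over all genes were 13.1% and 14.3%, and the median RNA difference of the readers was -0.18. Igf2bp1, Igf2bp2 and Igf2bp3 had 35.0 to 45.6, 30.2 to 41.0 and 46.6 to 53.1 CPM in M-cKO, within the F-cKO ranges of 20.6 to 57.8, 18.4 to 53.1 and 36.6 to 61.6. Alkbh5, the other eraser, had 33.6 to 34.7 CPM in M-cKO and 27.3 to 37.3 in F-cKO, where F-cKO 2 was the highest, and its difference was 0.14 with 6 libraries and 0.29 with 5 (adjusted p = 0.44). Per length, in RPKM, Hnrnpa2b1 had the highest footprint level of these 23 genes, with a mean of 284 in M-cKO and 334 in F-cKO, and Fto had means of 24.0 in M-cKO, 21.8 in Ctrl and 3.35 in F-cKO.

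Beyond Fto, the other 4 genes called without F-cKO 2 had low levels in Ctrl as well as in F-cKO. C2cd2l, a lipid-transfer protein at contacts between the endoplasmic reticulum and the plasma membrane (chromosome 9, 44309237 to 44320282), had 146, 107 and 79.8 CPM in M-cKO, 8.45, 17.1 and 9.28 in F-cKO and 12.6, 7.91 and 10.6 in Ctrl. The groups were apart by more than 4-fold at their closest values. The difference was 3.26 ± 0.37 with 6 libraries (adjusted p = 0.116) and 3.64 ± 0.30 with 5 (adjusted p = 0.0239), whereas its RNA-seq difference was 0.05 (adjusted p = 0.71). Gm15728, a long noncoding RNA (chromosome 5, 117389122 to 117391460), had 159, 218 and 175 CPM in M-cKO against 9.0, 0.462 and 5.56 in F-cKO, with Ctrl at 9.08, 4.60 and 8.18. Its difference was 5.16 with 6 libraries (adjusted p = 0.297) and 4.67 ± 0.29 with 5 (adjusted p = 0.00803), and 0.36 in RNA-seq (adjusted p = 0.198). Both genes were thus far apart in footprints and close together in RNA.

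The remaining called genes are small structured RNAs, which are not translated. Gm24119, a snoRNA gene of 246 bases (chromosome 10, 91118291 to 91118536), had 5224, 4197 and 3741 CPM in M-cKO, 413, 124 and 409 in F-cKO and 611, 670 and 145 in Ctrl (3.79 ± 0.51 with 6 libraries, 3.42 ± 0.23 with 5, adjusted p = 0.195 and 0.00808). It lies inside Slc25a3, the mitochondrial phosphate carrier, whose own footprint difference was 0.08 with 6 libraries and 0.01 with 5. Gm25308, an snRNA gene of 158 bases (chromosome 2, 118077805 to 118077962), had 134, 127 and 139 CPM in M-cKO, 30.5, 13.7 and 20.5 in F-cKO and 10.5, 12.5 and 10.3 in Ctrl (2.62 and 2.38, adjusted p = 0.116 and 0.027). The snRNA families have many near-identical copies in the genome, and how fragments were divided among copies is not given, so the level of a single copy is uncertain.

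Protein-coding genes with the smallest p whose groups did not overlap included several that were as different in RNA. Med18, a subunit of the Mediator complex, had 50.5, 36.6 and 47.4 CPM in M-cKO against 17.3, 11.7 and 16.7 in F-cKO (1.55 ± 0.24, adjusted p = 0.265, RNA 1.25). Ufsp1, of a protease family that acts on the UFM1 modifier, had 13.9, 12.7 and 13.6 CPM in M-cKO against 4.60, 2.96 and 4.79 in F-cKO (1.69, RNA 1.10). Tpgs1, a subunit of the tubulin polyglutamylase complex, had 70.2, 75.1 and 72.5 CPM in M-cKO against 30.3, 12.8 and 28.8 in F-cKO (1.59 with 6 libraries and 1.30 ± 0.14 with 5, adjusted p = 0.5 and 0.0639, RNA 1.25). All M-cKO values of these 3 genes lay above all Ctrl values, which were 15.1 to 17.5, 4.27 to 5.53 and 23.7 to 24.1 CPM. Lcmt2, a tRNA-modifying methyltransferase (1.11, RNA 1.32), Mrpl43, a mitochondrial ribosomal protein (1.59, RNA 1.32), Cbfa2t3, a transcriptional corepressor (0.84, RNA 0.55), and Nr2f2, a nuclear receptor of caudal ganglionic eminence cells (1.25, RNA 0.49), were also higher, and RNA-seq called each of them. Lcmt2 overlaps Adal and Mrpl43 overlaps Twnk in the annotation, so their levels may include fragments of these neighbours. Without F-cKO 2 the rule also named Rpp25l (1.06), F8a (1.08) and AW551984 (1.08), all higher in RNA as well (1.09, 0.99 and 0.83).

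A few genes had no matching RNA difference. Inpp5f, a phosphoinositide phosphatase, had 95.7, 84.5 and 102 CPM in M-cKO against 54.9, 52.4 and 58.0 in F-cKO (0.77 ± 0.14, adjusted p = 0.439), with 0.03 in RNA. Mfge8, a secreted glycoprotein made by radial glia, had 88.9, 67.2 and 81.1 CPM in M-cKO against 14.7, 125 and 22.7 in F-cKO, with Ctrl between 20.6 and 26.9. F-cKO 2 alone lay above the M-cKO libraries, so the difference was 0.55 (adjusted p = 0.789) with 6 libraries and 2.08 ± 0.24 (adjusted p = 0.0814) with 5, against -0.14 in RNA.

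On the lower side, Rlbp1, a retinoid-binding protein of glia, had 49.9, 40.5 and 41.8 CPM in M-cKO, 114, 82.7 and 112 in F-cKO and 108, 108 and 132 in Ctrl. The M-cKO libraries lay below all 6 others, with a difference of -1.23 ± 0.19 (adjusted p = 0.265) and -1.36 ± 0.14 without F-cKO 2 (adjusted p = 0.0639), and RNA-seq called it lower by a like amount (-1.15). Fv1, a retroviral restriction gene derived from an endogenous gag sequence, had 16.6, 12.8 and 15.2 CPM in M-cKO against 51.1, 35.0 and 38.2 in F-cKO (-1.48, RNA -1.63). Aox4, an aldehyde oxidase, had 1.75, 1.94 and 2.06 CPM in M-cKO against 6.80, 5.92 and 7.88 in F-cKO (-1.84, RNA -1.49). Both were at the F-cKO level in Ctrl, with 32.8 to 40.7 and 5.84 to 7.57 CPM. Rbmx, an RNA-binding protein, had 123, 132 and 88.3 CPM in M-cKO against 260, 230 and 242 in F-cKO (-1.09, RNA -0.87), and its gene holds Snord61, whose own difference without F-cKO 2 was 1.54. Aldoc, the glial aldolase, had 197, 183 and 181 CPM in M-cKO against 334, 260 and 341 in F-cKO (-0.74 and -0.85, RNA -0.51). Dcun1d5, a cofactor of neddylation, was at -0.89 in footprints and -0.34 in RNA, and it overlaps Dync2h1 in the annotation. Veph1 (-1.12), Limch1 (-0.71), Mipol1 (-1.10) and Pde1b (-0.69) completed the lower side with 6 libraries, and Dapp1 (-1.50), Nsmce1 (-0.69) and Bcas3 (-0.70) were added with 5, where RNA-seq called each except Nsmce1 and Bcas3. Veph1 overlaps Ptx3 and Mipol1 overlaps Prps1l3 in the annotation.

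Fragments on miRNA genes were higher in M-cKO as a class. Mature miRNAs are about as long as the fragments that were sequenced, and the counts per gene do not tell which arm of the hairpin, or whether a mature miRNA or its precursor, was read. Mature sequences are from RefSeq (GRCm38.p6), which held 172 of the 185 measured miRNA genes, with the seed, bases 2 to 8, in capitals. The first 4 belong to the 3 miRNA genes with the smallest p over 6 libraries, and the others show seeds that are shared by miRNA genes lying apart in the genome.
mmu-miR-532-3p: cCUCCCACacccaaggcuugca
mmu-miR-676-3p: cCGUCCUGagguuguugagcu
mmu-miR-872-5p: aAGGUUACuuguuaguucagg
mmu-miR-872-3p: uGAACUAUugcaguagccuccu
mmu-miR-99a-5p: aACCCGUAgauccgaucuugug
mmu-miR-99b-5p: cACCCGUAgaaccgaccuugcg
mmu-miR-128-3p: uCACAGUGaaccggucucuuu
mmu-miR-181a-5p: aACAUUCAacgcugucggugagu
mmu-miR-181c-5p: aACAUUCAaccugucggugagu
mmu-miR-301a-5p: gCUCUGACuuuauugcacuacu
mmu-miR-301b-5p: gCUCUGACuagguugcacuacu

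The sequence of miR-532-3p lies at chrX:7248419-7248440 on the minus strand inside Clcn5, that of miR-676-3p at chrX:100381151-100381171 on the plus strand inside Eda, and those of miR-872 at chr4:94665167-94665187 and chr4:94665206-94665227 on the plus strand inside Ift74. miR-99a-5p lies at chr16:77598940-77598961 and miR-99b-5p at chr17:17830194-17830215, both on the plus strand. miR-128-3p is the same at chr1:128202404-128202424 (plus, inside R3hdm1) and chr9:112118644-112118664 (minus, inside Arpp21), so fragments of the mature form cannot be assigned to either gene. miR-181a-5p is likewise the same at chr1:137966468-137966490 and chr2:38852741-38852763, both plus, and miR-181c-5p lies at chr8:84178924-84178945 on the minus strand. miR-301a-5p lies at chr11:87113017-87113038 (plus) and miR-301b-5p at chr16:17124456-17124477 (minus).

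The 185 miRNA genes held 5.22%, 6.73% and 2.15% of the counted fragments in M-cKO 1 to 3, 1.05%, 1.38% and 1.48% in F-cKO 1 to 3, and 1.79%, 2.31% and 1.01% in Ctrl. All M-cKO shares lay above all F-cKO shares, but M-cKO 3 lay between Ctrl libraries. The means were 4.70 ± 2.34% (SD, n = 3) and 1.30 ± 0.22% (n = 3), and the two-sided exact permutation p was 0.1, the smallest that 3 against 3 libraries allow. Without F-cKO 2 the F-cKO mean was 1.26% and p was 0.2, again the smallest possible. When the 10 genes with most counts of all classes were left out, the means were 2.20% and 0.68%, the groups overlapped and p was 0.2 with 6 libraries. Of 182 miRNA genes tested, 156 were higher in M-cKO with 6 libraries and 179 with 5, with median log2 differences of 1.55 and 1.92 against -0.07 and 0.01 over all genes. In 47 all M-cKO libraries lay above all F-cKO libraries and in 0 all lay below (background 9.21% and 6.81%). Without F-cKO 2 the numbers were 85 and 0 (background 17.1% and 16.1%). No miRNA gene was called by edgeR with the design used here, where 59 and 94 were higher and 0 lower at an unadjusted p below 0.05 (background 4.98% and 7.3% higher). With all 3 groups in 1 edgeR fit 9 and 13 were called higher, and without F-cKO 2 scaling by total counts called 3 and a replicate block 7. Leaving out M-cKO 3 from the 6 libraries called Mir106b, Mir543 and Mir99b. A robust prior without F-cKO 2, chosen after seeing the data, called Mir532, Mir652 and Mir676. DESeq2 called 38 and 64 higher and 0 lower (background 1.46% and 2.73% higher). The class depended on the M-cKO library. M-cKO 2 lay above both F-cKO 1 and F-cKO 3 in 171 of the genes, M-cKO 1 in 143 and M-cKO 3 in 86, and F-cKO 2 itself did so in 105. Without M-cKO 2 the medians were 0.89 with the F-cKO libraries complete and 1.42 without F-cKO 2, and without M-cKO 3 and F-cKO 2 the median was 2.32.

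**Figure D2:**
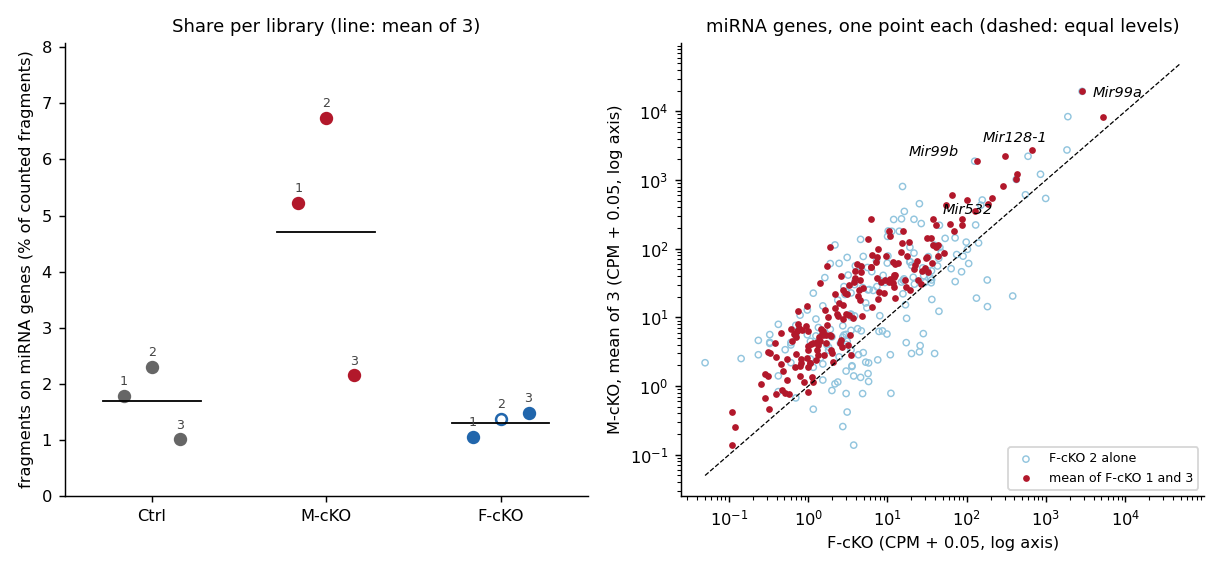
Left, percent of counted fragments on miRNA genes in each Ribo-seq library (numbered points, F-cKO 2 hollow, line the mean of 3); right, mean M-cKO CPM of each miRNA gene against F-cKO 1 and 3 (filled) and F-cKO 2 alone (open) on log axes, with a small constant added so that 0 can be drawn. M-cKO 3 (2.15%) lies within the Ctrl range, and most filled points lie above the dashed line of equal levels while open points lie on both sides of it.

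Mir532 had 337, 285 and 181 CPM in M-cKO, 37.2, 21.5 and 38.4 in F-cKO and 45.4, 70.7 and 33.8 in Ctrl, a difference of 3.04 ± 0.33 (adjusted p = 0.116) with 6 libraries and 2.82 ± 0.29 (adjusted p = 0.0639) with 5. Mir676 had 70.7, 57.6 and 34.5 CPM in M-cKO against 5.65, 4.53 and 6.78 in F-cKO (3.25). Mir872 had 109, 75.6 and 50.1 CPM in M-cKO against 10.1, 10.1 and 8.74 in F-cKO (3.02). For all 3 the groups were apart by more than 4-fold at their closest values, and M-cKO 3 was the lowest M-cKO library. Their host genes had RNA differences of -0.43 (Clcn5), -0.04 (Eda) and -0.56 (Ift74), and RNA-seq called Clcn5 and Ift74 lower. Of the miRNA genes, 76 lie within a protein-coding gene that was tested in RNA-seq. Their median footprint difference without F-cKO 2 was 2.02, while the median RNA difference of the 69 hosts was -0.12, with 4 hosts called higher and 19 lower, against 13.1% and 14.3% of all genes.

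Of 35 seeds shared by at least 2 tested miRNA genes, every gene had all M-cKO libraries above all F-cKO libraries for 8, some had for 9 and none for 18 with 6 libraries, and for 11, 12 and 12 with 5. Both arms of a hairpin can enter such a count, and genes with an identical mature sequence, such as Mir128-1 and Mir128-2 or Mir181a-1 and Mir181a-2, cannot be told apart by its fragments. Mir99a, the miRNA gene with the highest level in each M-cKO library, had 24046, 25313 and 9207 CPM in M-cKO, 2388, 2856 and 3308 in F-cKO and 3310, 7261 and 3334 in Ctrl (2.77 ± 0.46, adjusted p = 0.297). Mir99b, with the same seed on another chromosome, had 2233, 2833 and 572 CPM in M-cKO against 152, 126 and 121 in F-cKO (3.82). Mir128-1, from a brain-enriched family, had 3000, 2366 and 1282 CPM in M-cKO against 156, 593 and 444 in F-cKO (2.48 with 6 libraries and 2.88 with 5). Mir128-1 and Mir128-2 had nearly the same difference without F-cKO 2 (2.88 and 2.99). All 4 miRNA genes with the seed of miR-181a-5p, all 3 with the seed AGUGCAA (Mir130a, Mir130b and Mir301) and both with the seed of miR-301a-5p had M-cKO libraries above all F-cKO libraries, with and without F-cKO 2. Other families did not separate, among them the Mir200 and Mir218 genes, and 3 genes, Mir218-1, Mir499 and Mir669c, were lower in M-cKO without F-cKO 2 (-0.32, -0.05 and -0.31), none with p below 0.05. These families were named after their values were seen.

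The other miRNA genes among the 10 with the highest mean level overlapped between the groups with 6 libraries. Without F-cKO 2, Mir381 was apart, with 1105, 577 and 147 CPM in M-cKO against 24.6 and 104 in F-cKO 1 and F-cKO 3. F-cKO 2 had 550 CPM, and the difference of Mir381 was 1.43 with 6 libraries and 3.24 with 5 (adjusted p = 0.644 and 0.306). Mir148a (1.36 and 2.02) and Mirlet7g (1.09 and 1.51) overlapped in both sets. Mir5099, second in level in each M-cKO library, had 10726, 10008 and 4350 CPM in M-cKO against 5533, 1886 and 4963 in F-cKO (1.02 with 6 libraries and 0.67 with 5, adjusted p = 0.586 and 0.469). Mir143 had 354, 2517 and 188 CPM in M-cKO, and Mir221 had 187, 2041 and 186, with M-cKO 2 far above the other M-cKO libraries and F-cKO ranges of 204 to 621 and 15.4 to 393. Mir30a had 356, 1151 and 111 CPM in M-cKO against 79.0, 991 and 341 in F-cKO (0.19 with 6 libraries and 1.36 with 5, adjusted p = 0.955 and 0.559). Among the other classes, snRNA genes had medians of 0.62 and 0.81 over 58 genes, with 17 above and 2 below in all libraries with 6 (background 9.21% and 6.81%). The snoRNA genes had 0.30 and 0.39 over 97 genes, but the median was 1.61 without F-cKO 1 and F-cKO 2 and -0.06 without F-cKO 2 and F-cKO 3. Of the snRNA genes named by the rule, Gm24038 was higher in M-cKO (8.23, 10.9 and 12.6 against 0.60, 0.185 and 0.208 CPM), while Gm25360 (379, 364 and 354 against 1027, 679 and 637 CPM) and Gm22973 (144, 147 and 144 against 372, 267 and 200 CPM) were lower. The share of fragments on protein-coding genes was 84.9%, 84.9% and 91.3% in M-cKO against 91.0%, 92.1% and 93.6% in F-cKO (exact permutation p = 0.2), so the highest M-cKO and lowest F-cKO libraries overlapped.

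For chaperones of the endoplasmic reticulum, axon guidance genes and endothelial genes the 6-library values turned on F-cKO 2. The 1939 genes that lay over 2-fold above all other libraries in F-cKO 2 were chosen on a library of this comparison, which favours lower values in M-cKO. All were lower with 6 libraries (median -1.03), but 600 were lower with 5 (median 0.17). Among the 1939 genes were 18 of 22 chaperones and translocon subunits of the endoplasmic reticulum, 23 of 24 axon guidance genes and 9 of 10 endothelial genes, against 13.6% of all genes, and 0 of the m6A writers, readers and erasers, ganglionic eminence genes, cytosolic ribosomal proteins or proteasome subunits. The summed level of the chaperones was 6028 CPM in F-cKO 2 and 820 to 1129 in the other 8 libraries, that of the axon guidance genes 5399 and 801 to 1025, and that of the endothelial genes 475 and 25.2 to 59.1. Their median differences went from -1.13 to 0.08, from -1.29 to 0.17 and from -2.65 to -0.20 when F-cKO 2 was left out. Pdia3, which folds glycoproteins, had 67.5, 59.9 and 81.0 CPM in M-cKO against 59.4, 494 and 59.0 in F-cKO. Plxnb2, a semaphorin receptor, had 38.5, 40.1 and 39.0 CPM in M-cKO against 27.0, 376 and 25.2 in F-cKO, so its sign turned from -1.86 to 0.59 ± 0.15 (adjusted p = 0.281). Slit1, a repulsive ligand (-1.03 and 0.70), and Efnb1, an ephrin (-0.32 and 0.79), turned likewise. Of all 14262 genes in both fits, 3636 had another sign without F-cKO 2 and 1503 moved by more than 1 on the log2 scale. At an unadjusted p below 0.05, 1154 genes passed with 6 libraries and 1907 with 5, of which 927 passed in both with the same sign and 0 with the other sign.

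**Figure D3:**
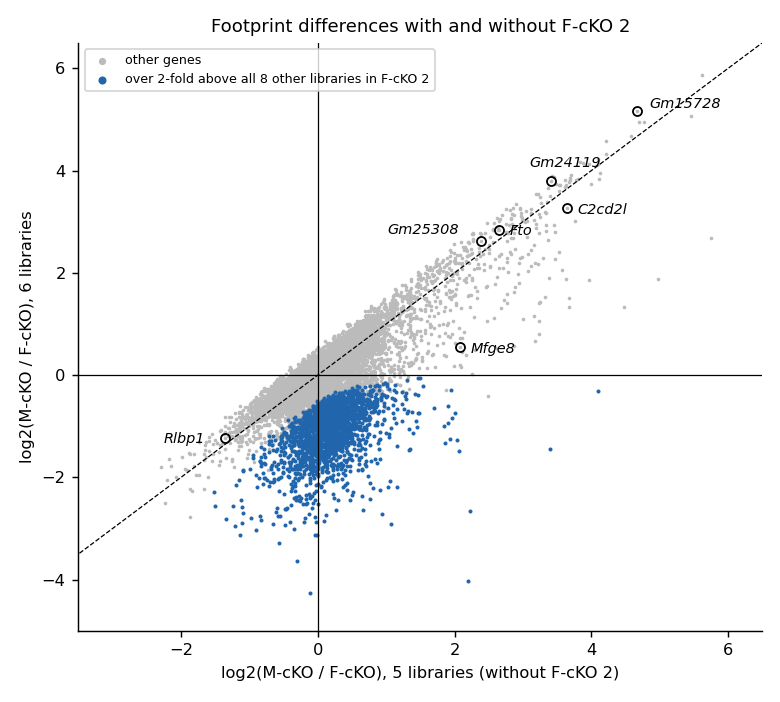
Log2 difference of each gene between M-cKO and F-cKO with all 6 libraries (y axis) against the 5 libraries without F-cKO 2 (x axis), the dashed line marking equal values. The 1939 genes over 2-fold above all 8 other libraries in F-cKO 2 (blue) have a median of -1.03 on the y axis and 0.17 on the x axis, while Fto, Gm15728, Gm24119 and Gm25308 lie close to the line.

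Marker lists of cell types other than cortical neurons and their progenitors differed among themselves, and those of interneurons, striatal neurons, choroid plexus and epidermis had higher medians in M-cKO. Of 13 genes of ganglionic eminence interneurons, 8 had all M-cKO libraries above all F-cKO libraries and 0 below with 6 libraries (background 9.21% and 6.81%), and 10 and 0 with 5 (background 17.1% and 16.1%). The medians were 1.15 and 1.11, and 11 and 12 genes were higher at an unadjusted p below 0.05 (background 4.98% and 7.3%). Of these 13 genes edgeR called 0 in either set, whereas DESeq2 called 5 higher with 6 libraries and 8 with 5 (background 1.46% and 2.73%). Their summed level was 691, 785 and 444 CPM in M-cKO, 320, 255 and 314 in F-cKO and 370, 252 and 266 in Ctrl, so all M-cKO libraries lay above the other 6 and M-cKO 3 lay nearest to them. Dlx1, which specifies interneuron precursors, had 99.2, 101 and 48.8 CPM in M-cKO against 36.0, 28.8 and 35.7 in F-cKO (1.31 ± 0.30, adjusted p = 0.5), and Sst, the neuropeptide of a class of interneurons, had 79.4, 94.4 and 72.8 against 51.0, 27.7 and 33.3 (1.14). In RNA-seq 11 of the 13 genes were called higher in M-cKO and 0 lower, against 13.1% and 14.3% of all genes, with a smaller median of 0.62. Genes of striatal neurons, which neighbour the cortex, had a median of 1.62 and 1.43 over 12 genes, and their summed level of 392 CPM in M-cKO 3 lay inside the F-cKO range of 351 to 499. Choroid plexus genes had medians of 0.53 and 1.00 over 7 genes, with 0 above in all libraries with 6 and 2 with 5, 0.52 in RNA-seq over 8 genes, and summed levels that overlapped between the groups (626 to 1882 CPM in M-cKO and 214 to 1283 in F-cKO). Epidermis genes had medians of 0.67 and 0.71 over 4 genes. Their summed levels were low, with 23.2 to 25.5 CPM in M-cKO, 16.4 to 22.9 in F-cKO and 25.8 to 29.7 in Ctrl. Endothelial genes had medians of -2.65 and -0.20 over 10 genes, meningeal genes -1.04 and -0.57 over 10, and microglial genes -0.26 and 0.07 over 9. The part of neighbouring tissue in these differences was not tested.

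Genes of radial glia, the progenitors lining the ventricle, were mostly lower in M-cKO. Of 21, 3 lay above and 6 below in all libraries with 6 (background 9.21% and 6.81%), and 4 and 9 with 5 (background 17.1% and 16.1%), with medians of -0.47 and -0.32. Their summed level was 4408, 3863 and 3508 CPM in M-cKO, 6336, 6297 and 5176 in F-cKO and 4842 to 5400 in Ctrl. All M-cKO libraries lay below the other 6, while F-cKO 3 lay within the Ctrl range. Fabp7, the fatty acid-binding protein of these cells, had 1011, 696 and 692 CPM in M-cKO against 1424, 984 and 1704 in F-cKO, where F-cKO 2 overlapped the M-cKO range (-0.78 ± 0.27 with 6 libraries, -0.97 ± 0.22 with 5, adjusted p = 0.586 and 0.272). Cdk6, a kinase of the G1 phase, had 38.4, 26.1 and 27.8 CPM in M-cKO against 75.2, 51.9 and 58.2 in F-cKO, with all M-cKO libraries below (-1.01 ± 0.23 and -1.11 ± 0.22). Tnc, an extracellular matrix protein of radial glia, had 17.7, 19.5 and 17.5 CPM in M-cKO against 25.6, 324 and 39.4 in F-cKO (-2.83 and -0.83). Sox2, a progenitor transcription factor, went the other way, with 133, 145 and 102 CPM in M-cKO against 88.5, 75.6 and 57.1 (0.78 ± 0.22, adjusted p = 0.569), and Pax6 did not separate (45.7 to 54.1 against 38.7 to 86.7 CPM). RNA-seq called 12 of the 21 lower and 2 higher, against 14.3% and 13.1% of all genes, with Fabp7 at -0.55, Cdk6 at -0.96 and Sox2 at 0.43. Of the 472 rows of the RGC genes listed by the study, 14 were higher and 43 lower at an unadjusted p below 0.05 without F-cKO 2, against 7.3% and 6.07% of all genes, and the medians were -0.20 with 6 libraries and -0.10 with 5. Of its 322 IP genes, 11 were higher and 23 lower at an unadjusted p below 0.05 without F-cKO 2, against the same 7.3% and 6.07%. The medians of the IP genes were -0.14 with 6 libraries and -0.06 with 5. RNA-seq called 103 of the IP genes lower and 33 higher, against 14.3% and 13.1% of all genes.

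**Figure D4:**
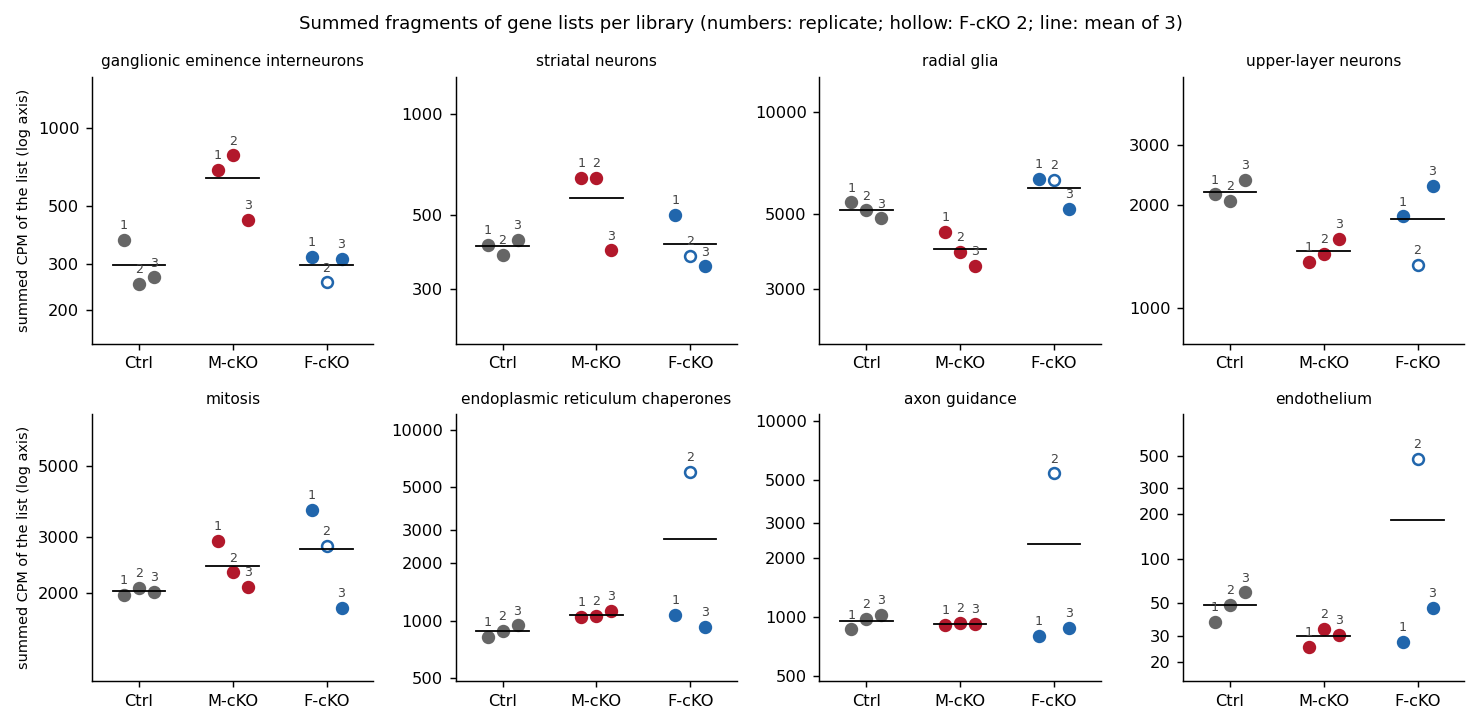
Summed TMM-scaled CPM of 8 gene lists in each Ribo-seq library on log axes (numbered points, F-cKO 2 hollow, line the mean of 3). Interneuron genes of the ganglionic eminence are highest and radial glia genes lowest in the M-cKO libraries, mitosis genes overlap, and the lists of the endoplasmic reticulum, axon guidance and endothelium are high in F-cKO 2 only.

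Cortical neuron genes differed gene by gene. Of 11 upper-layer genes, 7 were called lower in RNA and 0 higher, against 14.3% and 13.1% of all genes, while the footprint medians were -0.16 and -0.19. Among 10 deep-layer genes, Crym had 34.4, 36.7 and 68.1 CPM in M-cKO against 96.8, 57.8 and 190 in F-cKO (-1.31 and -1.63, adjusted p = 0.586 and 0.272). Bcl11b, which marks subcerebral and also striatal neurons, had 341, 354 and 286 CPM in M-cKO against 249, 139 and 165 in F-cKO, all higher (0.83 ± 0.24 and 0.66 ± 0.21). Mitosis genes did not separate, with summed levels of 2089 to 2910 CPM in M-cKO and 1802 to 3642 in F-cKO, and Mki67 ranged from 384 to 504 CPM in M-cKO and from 230 to 552 in F-cKO. RNA-seq called 10 of the 22 mitosis genes lower and 0 higher (median -0.27, against 14.3% and 13.1% of all genes). F-cKO 3 was the lowest and F-cKO 1 the highest for Mki67, whose difference changed sign when a library was left out, as did those of Eomes and Pax6.

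Lists of translation factors, proteasome subunits, nuclear respiratory chain genes, cytosolic ribosomal proteins and aminoacyl-tRNA synthetases had lower medians once F-cKO 2 was left out. Of 64 translation initiation and elongation factors, 32 had all M-cKO libraries below both F-cKO libraries and 4 above (background 16.1% and 17.1%), with a median of -0.21, and 15 were lower and 0 higher at an unadjusted p below 0.05 (background 6.07% and 7.3%). Of 45 proteasome subunits 21 were below and 2 above (median -0.29), of 90 nuclear genes of the respiratory chain 31 and 4 (-0.18), of 81 cytosolic ribosomal proteins 18 and 6 (-0.15), and of 18 aminoacyl-tRNA synthetases 11 and 0 (-0.25). With 6 libraries the medians were -0.10, -0.14, -0.03, -0.06 and -0.18, since F-cKO 2 had lower summed levels of these lists than F-cKO 1 and F-cKO 3. Eif3e, a subunit of the initiation factor that loads mRNA on the small ribosomal subunit, had 148, 126 and 141 CPM in M-cKO against 214, 147 and 222 in F-cKO (-0.66 ± 0.13 without F-cKO 2, adjusted p = 0.242, RNA -0.28). Psmd6, of the proteasome lid, had 289, 226 and 258 CPM in M-cKO against 361, 298 and 439 in F-cKO (-0.64 ± 0.17, RNA -0.40). Both genes had M-cKO values below F-cKO 1 and F-cKO 3. For Eif3e, F-cKO 2 (147 CPM) lay within the M-cKO range, and for Psmd6 F-cKO 2 (298 CPM) lay just above the highest M-cKO library (289 CPM). In RNA-seq, 7 of the 18 synthetases were called lower and 0 higher (median -0.20), against 14.3% and 13.1% of all genes. Of 45 proteasome subunits 7 were called lower and 1 higher (-0.05), and of 65 translation factors 14 lower and 8 higher (-0.02), so the share of lower proteasome subunits was near that of all genes. RNA-seq went the other way for cytosolic ribosomal proteins, of which 30 of 85 were called higher in M-cKO and 0 lower (median 0.21, against 13.1% and 14.3% of all genes), and for the respiratory chain, of which 19 of 92 were called higher and 5 lower (median 0.14). Of 74 mitochondrial ribosomal proteins, 17 lay above and 2 below in all libraries with 6 (background 9.21% and 6.81%), and 17 and 18 without F-cKO 2 (background 17.1% and 16.1%), while RNA-seq called 29 of 73 higher and 1 lower. The 8 genes of the mitochondrial genome that were tested moved the other way, from a median of 0.01 with 6 libraries to 1.00 with 5, and none separated the groups in either set. Mrps34 was among the higher mitochondrial ribosomal protein genes (21.5, 26.8 and 24.0 against 11.7, 4.90 and 9.99 CPM, RNA 1.00).

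Footprint and RNA differences were alike in sign for most genes that RNA-seq called. Over 13162 genes measured in both assays the footprint difference with 6 libraries had a Pearson correlation of 0.347 and a Spearman correlation of 0.449 with the RNA difference, and over 13166 genes without F-cKO 2 these were 0.394 and 0.47. The points are genes of the same tissue, not independent replicates, and low counts widen the footprint axis. Of the 1974 genes called higher in RNA, 74.2% were higher in footprints with 6 libraries and 84.3% with 5, where 40.5% and 49.7% of all genes were higher. Of the 2169 called lower, 91.5% were lower with 6 libraries, and of 2170, 81.8% with 5, where 59.5% and 50.3% of all genes were lower. Leaving out F-cKO 2 thus brought the shares on both sides to similar values. Among genes called higher in RNA, 499 were higher and 7 lower in footprints at an unadjusted p below 0.05 without F-cKO 2, and among those called lower, 459 were lower and 13 higher. The median RNA difference of the called genes was 0.46 and -0.37, and their median footprint difference without F-cKO 2 was 0.34 and -0.26. Meningeal genes stood against this pattern, since 8 of 11 were called higher in RNA (median 1.54, against 13.1% of all genes). However, in 1 of the 11 all M-cKO RNA libraries lay above all F-cKO RNA libraries, against 22.8% of all genes. The footprint medians of the meningeal genes were -1.04 and -0.57 over 10 genes, none with p below 0.05.

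**Figure D5:**
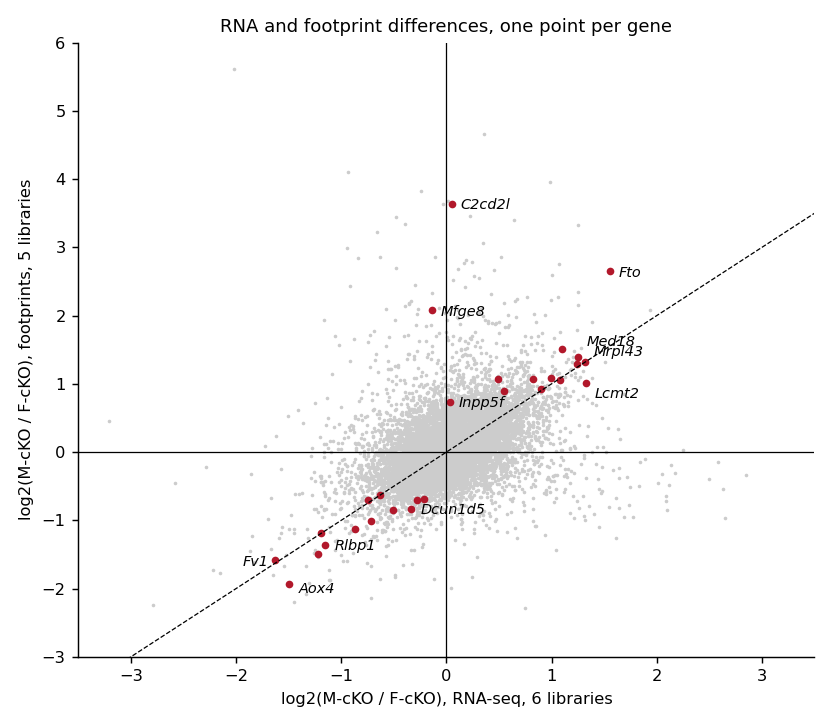
Log2 difference between M-cKO and F-cKO in footprints without F-cKO 2 (y axis) against RNA-seq with all 6 RNA libraries (x axis), each point a gene and the dashed line equal values. Red points are the protein-coding genes named by the rule, of which Mrpl43, Med18, Rlbp1 and Fv1 lie near the line, and C2cd2l (3.64 and 0.05) and Mfge8 (2.08 and -0.14) lie far above it.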

How the data were processed

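Ribo-seq and RNA-seq of 3 groups with 3 libraries each were used. For Ribo-seq, the authors mapped fragments with TopHat2 and deposited counts per gene from HTSeq, and the authors also deposited RPKM, which divides the counts by transcript length and library size. For RNA-seq, the authors aligned reads with HISAT2 2.0.5 and deposited gene counts. The submitters' processing notes name mm10, and positions are from RefSeq GRCm38.p6, the same assembly. Whether counting used strand is not given in the sources used here. Of the Ribo-seq rows, 40490 are blank in 8 libraries and were left out.

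Groups were taken from the sample labels. Counts were tested in R 4.3.3 with edgeR 4.0.16 (filterByExpr with minimum count 10 and minimum total 15, TMM scaling, quasi-likelihood test), with M-cKO and F-cKO libraries only and Benjamini-Hochberg adjustment over all genes tested, called at an adjusted p below 0.05. SE is the log2 difference divided by the square root of F. The fits were tested on simulated data first. DESeq2 1.42.0, limma 3.58.1, other scalings, no filter, all groups together, a replicate block, protein-coding genes alone and leaving out each library were alternatives. Shares were compared by two-sided exact permutation tests over libraries. The p-values cover the spread between these libraries, and counting PCR-amplified fragments adds error that they do not separate.

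The members, lists and tests were chosen with earlier results of these data known. Named genes are Mettl3 and Fto, m6A genes, genes named by the study, and in each footprint fit the 10 protein-coding and 5 other genes per direction with the smallest p among those whose groups did not overlap, and up to 4 members per list by p without F-cKO 2. The 10 miRNA genes with the highest mean level and the miRNA families were added after values were seen. Some genes that the rule names are not reported here. Lists were described by counts and medians without a set test. Depth was 10973699 to 32954317 fragments in the M-cKO and F-cKO Ribo-seq libraries, 30081796 to 35853227 in Ctrl and 18504094 to 22592406 reads in RNA-seq.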

Additional observations from a re-analysis of the deposited data

How the results depend on the processing

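With 6 libraries, the counts called higher and lower (0 and 0 by edgeR) were 178 and 28 with DESeq2, 4 and 0 with limma's voom and 20 and 5 with all 3 groups fitted together. With 5 libraries (5 and 0) they were 8 and 1 with scaling by total counts, 337 and 248 with DESeq2, 50 and 24 with all groups together, 12 and 2 with a robust prior (chosen after seeing the data) and 4 and 1 over protein-coding genes alone. The cause of these changes was not tested. All 5 genes called were shared by DESeq2, total counts, no filter and the other scaling, and 4 of them by voom. Deviations of same-numbered M-cKO and F-cKO libraries had correlations of 0.014, 0.16 and 0.117, and those of differently numbered libraries had -0.194 to 0.181. With 3 libraries per group these values cannot decide whether the replicate numbers pair the libraries. A replicate block gave 0 and 0 calls with 6 libraries, 23 and 2 with 5 and 1827 and 1883 in RNA-seq. Leaving out each library in turn gave 0 to 5 genes called higher with 6 libraries, 0 to 38 with 5, and 1442 to 2342 higher and 1325 to 2224 lower in RNA-seq (2196 and 2403 with all).

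List medians that moved without F-cKO 2 included those of the m6A writers (0.109), m6A readers (0.0776), endoplasmic reticulum chaperones (0.0832), axon guidance genes (0.171) and endothelium (-0.200). Medians also turned from -0.37 to 0.22 for glutamate receptors and scaffolds, from -0.09 to 0.03 for intermediate progenitors and from -0.26 to 0.07 for microglia, and that of the respiratory chain went from -0.03 to -0.18. Of the genes named, Igf2bp1 turned to 0.105 with voom and 0.00496 with the replicate block and Igf2bp3 to 0.011 with voom. With 6 libraries voom also turned Pdia3 (0.0267), Plxnb2 (0.34), Slit1 (0.525), Efnb1 (0.603), Mir218-1 (1.54) and Mir669c (0.0115), and the block turned Efnb1 (0.0861) and Mir669c (0.064). With 5, voom turned Mir218-1 (0.864), DESeq2 turned Mir499 (0.011), and the block turned Mir218-1 (0.158), Mir143 (-0.464) and Mir221 (-0.539). With a library left out, signs turned with 6 libraries for Prrc2a (-0.0203 to 0.246), Igf2bp1 (-0.509 to 0.131), Igf2bp2 (-0.377 to 0.354), Ythdc2 (-0.300 to 0.00639), Igf2bp3 (-0.359 to 0.0238), Mki67 (-0.280 to 0.296), Eomes (-0.418 to 0.158), Efnb1 (-0.782 to 0.794), Pdia3 (-2.08 to 0.231), Plxnb2 (-2.45 to 0.586), Slit1 (-1.55 to 0.703), Mir143 (-0.617 to 1.79), Mir221 (-0.0900 to 2.98), Mir30a (-1.01 to 1.36) and Mir669c (-0.407 to 0.611). With 5 they turned for Zc3h13 (-0.0969 to 0.303), Virma (-0.111 to 0.207), Mettl14 (-0.392 to 0.0862), Igf2bp1 (-0.402 to 0.972), Igf2bp2 (-0.101 to 1.01), Igf2bp3 (-0.290 to 0.418), Tbr1 (-0.0562 to 0.297), Mki67 (-0.310 to 0.957), Eomes (-0.581 to 0.533), Pax6 (-0.793 to 0.374), Mir143 (-0.608 to 2.32), Mir221 (-0.637 to 2.11), Mir218-1 (-2.30 to 5.64), Mir499 (-0.925 to 3.37) and Mir669c (-0.741 to 0.374). F-cKO 2 had the fewest fragments, and calls without it rest on 2 F-cKO libraries.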
